A study of Mus musculus with 19 samples.

Results

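The acetylcholine genes examined here are the 6 genes Chat, Slc5a7, Slc18a3, Ache, Prima1 and Colq, chosen by symbol for the making, carrying and breakdown of the transmitter. All 6 were among the 50559 genes of the count table and among the 15572 genes that passed the filter on low counts. Ribosome-bound mRNA was recovered with RiboTag, in which cells with Cre recombinase carry a hemagglutinin tag on a ribosomal protein, and precipitation of the tag brings down the mRNA on their ribosomes. The 18 immunoprecipitates came from spinal cords of 10-wk-old male C57BL/6J mice of the genotype ChAT-Cre;RiboTag fx/+, which were otherwise wild-type and untreated. They were taken at Zeitgeber times (ZT, hours after lights on in a cycle of 12 h of light and 12 h of dark) 0, 4, 8, 12, 16 and 20, with 3 libraries at each time. The last library was a pooled input of the same genotype, made from homogenate before precipitation. No group lacked Cre, and no group carried another allele or agent. In ChAT-Cre mice Cre is expressed from the Chat locus itself, so Chat is both a gene described here and the gene whose activity marked the cells, which include motor neurons and the other cholinergic neurons of the cord.

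Acetylcholine is the transmitter with which spinal motor neurons excite muscle. Chat encodes choline acetyltransferase, which joins choline to the acetyl group of acetyl-CoA in the nerve terminal. Slc5a7 encodes the high-affinity choline transporter that takes choline back up after release, and Slc18a3 encodes the vesicular transporter that loads acetylcholine into synaptic vesicles. Ache encodes acetylcholinesterase, which splits the transmitter in the cleft. Prima1 encodes the membrane anchor that holds the enzyme on neurons, and Colq encodes the collagen tail that holds it in the basal lamina of the neuromuscular junction.

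Library totals ran from 6302150 to 22406844 expected counts. All 6 motor neuron markers (Isl1, Isl2, Mnx1, Prph, Nefh and Calca) were enriched over the input, with a median log2 ratio of 3.40. All markers of oligodendrocytes (7 of 7), astrocytes (6 of 6), microglia (6 of 6), endothelial cells (4 of 4), fibroblasts (4 of 4) and excitatory neurons (3 of 3) were depleted, as were 3 of 4 markers of inhibitory neurons. Of all 16828 genes compared, 14.1% were enriched, and the share depleted is not given here. No marker of these lists was at 0 in all 18 immunoprecipitates. The summed level of 4 skeletal muscle markers varied most between libraries, from 0.984 CPM in ZT16 replicate 3 to 144.5 CPM in ZT16 replicate 1, and 1 of the 4 met the rule for depletion. Fewer cholinergic cells and less RNA per cell cannot be told apart in such bulk precipitates.

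Chat and Slc18a3 share 1 locus on chromosome 14, which is why their upstream sequences are shown. In GENCODE M21 on GRCm38, Chat spans chr14:32408203-32465989 on the minus strand. Slc18a3 is a gene of 1 exon at chr14:32462438-32464850 on the same strand and lies inside the first intron of Chat. None of the exons of Chat overlaps it, although unspliced Chat RNA would cross it and could not be separated from Slc18a3 mRNA by strand. The antisense gene Gm2990 overlaps the first exon of Chat on the plus strand, and whether the counting used the strand that the library kit keeps was not given in the sources used here. The upstream sequences were taken from RefSeq (GRCm38.p6), where 5 of the 6 genes had an entry, and run 5′ to 3′ on the minus strand up to the start of the GENCODE gene. Capitals mark the E-box CACGTG, the letters bound by the clock factors CLOCK and BMAL1. The windows are chr14:32465990-32466159 for Chat and chr14:32464851-32465100 for Slc18a3.
Chat: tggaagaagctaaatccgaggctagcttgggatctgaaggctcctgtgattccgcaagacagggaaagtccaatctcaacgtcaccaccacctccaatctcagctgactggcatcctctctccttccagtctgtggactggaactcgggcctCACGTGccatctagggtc
Slc18a3: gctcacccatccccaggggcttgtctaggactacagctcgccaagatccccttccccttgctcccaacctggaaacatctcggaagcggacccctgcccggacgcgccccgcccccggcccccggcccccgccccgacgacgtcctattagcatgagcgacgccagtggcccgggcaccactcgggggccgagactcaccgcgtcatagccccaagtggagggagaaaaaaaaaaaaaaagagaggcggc
Over the whole RefSeq windows of 300 bases, from 250 before to 50 after each start, the E-box occurred once in Chat, at -98 from its RefSeq start, and once in Ache, at -199. It was not found in the windows of Slc5a7, Slc18a3 or Prima1. The same letters, which read alike on both strands, occurred in 7.15% of the 32851 windows of that length. The nuclear receptor motif AGGTCA, searched on both strands and found in 16.3% of windows, occurred in Prima1, and the D-box TTANGTAA, found in 2.32%, occurred in none of the 5. A match of letters is not a binding site. The other 4 genes lie at chr17:54273590-54299034 (Slc5a7, minus strand), chr5:137287519-137294466 (Ache, plus strand), chr12:103196908-103242150 (Prima1, minus strand) and chr14:31523082-31591343 (Colq, minus strand).

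Levels per kilobase of the longest coding transcript in GENCODE M21, which may not be the annotation used for counting, put the enzyme that destroys the transmitter at the top and the one that makes it near the bottom. In CPM per kilobase, the mean over 18 immunoprecipitates was 360 ± 79.9 (SD, n = 18) for Ache, 231 ± 68.6 for Slc18a3, 180 ± 8.75 for Prima1, 48.7 ± 10.2 for Slc5a7, 13.7 ± 7.33 for Chat and 1.73 ± 0.342 for Colq. Each gene was above the next in all 18 libraries, except that Slc18a3 was above Prima1 in 15 of 18. The order therefore differed between libraries for the pair Slc18a3 and Prima1 alone. Without division by length, the mean was 787 ± 175 CPM for Ache, 557 ± 166 for Slc18a3, 252 ± 52.9 for Slc5a7, 164 ± 7.96 for Prima1, 39.0 ± 20.9 for Chat and 4.97 ± 0.982 for Colq. Slc18a3 received 14.7 counts for each count of Chat at the median library, from 9.82 in ZT16 replicate 2 to 29.3 in ZT8 replicate 2. Their longest coding transcripts are of similar length, 2858 bases for Chat and 2413 for Slc18a3.

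The genes also differed in how much they moved between libraries. Chat spread most, over 10.2-fold between ZT8 replicate 2 and ZT16 replicate 2, with a coefficient of variation of 53.6%. That of Slc18a3 was 29.7%, of Ache 22.2%, of Slc5a7 21.0% and of Colq 19.8%. Prima1 spread least, over 1.23-fold with a coefficient of variation of 4.86%. Colq was counted 25 to 143 times in a library, so that counting error alone is a larger part of its spread than for the others.

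The input, a single library, shows how far precipitation raised each gene. No test is possible against 1 library, and a gene was called enriched where its mean was at least 2-fold above the input with all 18 immunoprecipitates above it. In this sense 4 of the 6 genes were enriched, against 14.1% of the 16828 genes compared. Slc18a3 was raised most, at 55.8 CPM in the input (95% Poisson interval, 52.5 to 59.3) and a log2 ratio of 3.32. Ache stood at 200 CPM in the input (194 to 207; log2 ratio 1.98). Slc5a7 stood at 65.6 CPM (62.0 to 69.4; log2 ratio 1.94) and Prima1 at 52.5 CPM (49.3 to 55.9; log2 ratio 1.64).
The genes that missed the rule were Chat and Colq. Chat stood at 12.9 CPM in the input (11.3 to 14.6) with a log2 ratio of 1.60, and 17 of 18 immunoprecipitates lay above it. The exception was ZT8 replicate 2, at 8.30 CPM, and without it Chat met the rule, which made 5 of the 6 genes. Colq stood at 3.38 CPM (2.59 to 4.32), and all 18 lay above it, but its log2 ratio was 0.56. The intervals cover counting error only.

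**Figure D1:**
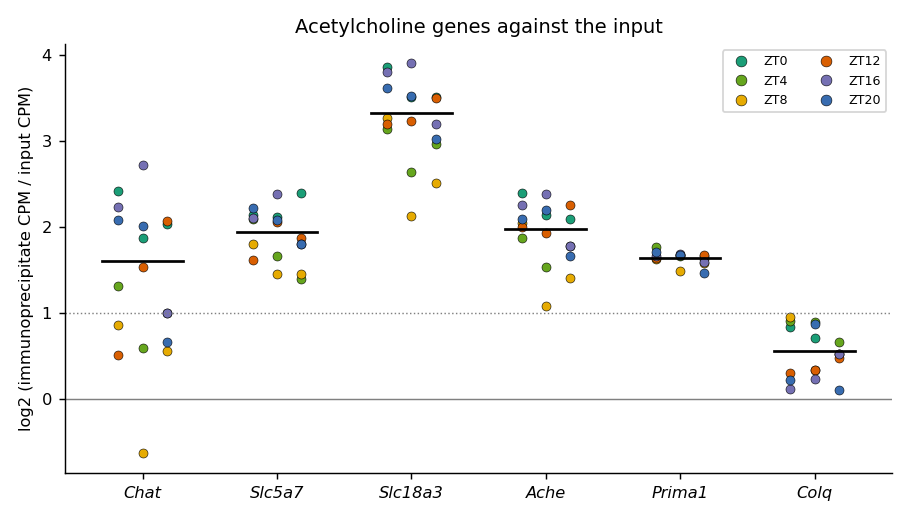
Log2 ratio of CPM in each of the 18 immunoprecipitates to CPM in the pooled input (vertical axis) for the 6 genes, coloured by time point, with a black line at the log2 ratio of means. Slc18a3 lies highest at 3.32, Prima1 is tightly grouped around 1.64, and only Chat has a library below 0, ZT8 replicate 2.

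Over the day, Chat, Slc5a7, Slc18a3 and Ache were low in the middle of the light phase and higher at both ends of it, whereas Prima1 stayed within a narrow band. The mean was lowest at ZT8 for these 4 genes and for Prima1, and at ZT16 for Colq. The mean was highest at ZT16 for Chat and Slc18a3, at ZT0 for Slc5a7 and Ache, and at ZT4 for Prima1 and Colq.

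Chat, the synthetic enzyme, was at 68.4, 47.2 and 52.7 CPM in replicates 1, 2 and 3 at ZT0, 32.0, 19.4 and 25.7 CPM at ZT4, and 23.3, 8.30 and 19.0 CPM at ZT8. It was at 18.3, 37.3 and 54.0 CPM at ZT12, 60.3, 84.8 and 25.7 CPM at ZT16, and 54.4, 51.7 and 20.3 CPM at ZT20. All ZT0 libraries lay above all ZT4 and ZT8 libraries, and within the dark phase replicate 3 was the lowest of its time at both ZT16 and ZT20. Replicate numbers link no animals across times. Separations between times, here and for the genes below, were not tested as such. How many of all genes show them is not given here, while edgeR gave 31.6% of all genes an unadjusted p under 0.05 for ZT8 against ZT0.

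Slc18a3, the vesicular transporter, was at 812, 636 and 638 CPM at ZT0, 492, 347 and 436 CPM at ZT4, and 537, 244 and 319 CPM at ZT8. It was at 512, 523 and 631 CPM at ZT12, 778, 833 and 513 CPM at ZT16, and 685, 643 and 454 CPM at ZT20. ZT8 replicate 1 lay above the lowest libraries of ZT12, ZT16 and ZT20, while the ZT0 libraries did not overlap those of ZT4 or ZT8.

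Slc5a7, the choline transporter, was at 288, 284 and 345 CPM at ZT0, 280, 207 and 173 CPM at ZT4, and 228, 180.3 and 179.8 CPM at ZT8. It was at 200, 272 and 240 CPM at ZT12, 281, 342 and 230 CPM at ZT16, and 305, 278 and 229 CPM at ZT20. All ZT8 libraries lay below all libraries of ZT0, ZT16 and ZT20, with the closest libraries at 228 CPM (ZT8) and 229 CPM (ZT20). The share of all genes that separate like this is not given here. In edgeR, 31.6%, 31% and 22.3% of all genes had an unadjusted p under 0.05 between ZT8 and ZT0, ZT16 and ZT20.

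Ache, the degrading enzyme, was at 1054, 877 and 855 CPM at ZT0, 732, 578 and 688 CPM at ZT4, and 828, 423 and 532 CPM at ZT8. It was at 798, 763 and 954 CPM at ZT12, 955, 1041 and 684 CPM at ZT16, and 855, 917 and 631 CPM at ZT20. ZT8 replicate 1 again stood above the other ZT8 libraries and overlapped ZT12, ZT16 and ZT20.

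Prima1, the neuronal anchor, lay between 145 CPM (ZT20 replicate 3) and 179 CPM (ZT4 replicate 1), with a median of 166 CPM. Its means ranged from 156 ± 7.43 CPM at ZT8 to 169 ± 8.67 CPM at ZT4 (SD, n = 3). Colq, the collagen tail, lay between 3.64 CPM (ZT20 replicate 3) and 6.53 CPM (ZT8 replicate 1), with means from 4.17 ± 0.608 CPM at ZT16 to 6.00 ± 0.558 CPM at ZT4. All ZT8 libraries of Prima1 (148 to 162 CPM) lay below all of ZT0 and ZT12 (164 to 168 CPM), and all ZT4 libraries of Colq (5.36 to 6.34 CPM) lay above all of ZT12 and ZT16 (3.67 to 4.84 CPM). Such separations between times were not tested, and the share of all genes that show them is not given here. Neither gene passed any of the tests over time. For any time point the edgeR adjusted p was 0.913 for Prima1 and 0.572 for Colq.

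**Figure D2:**
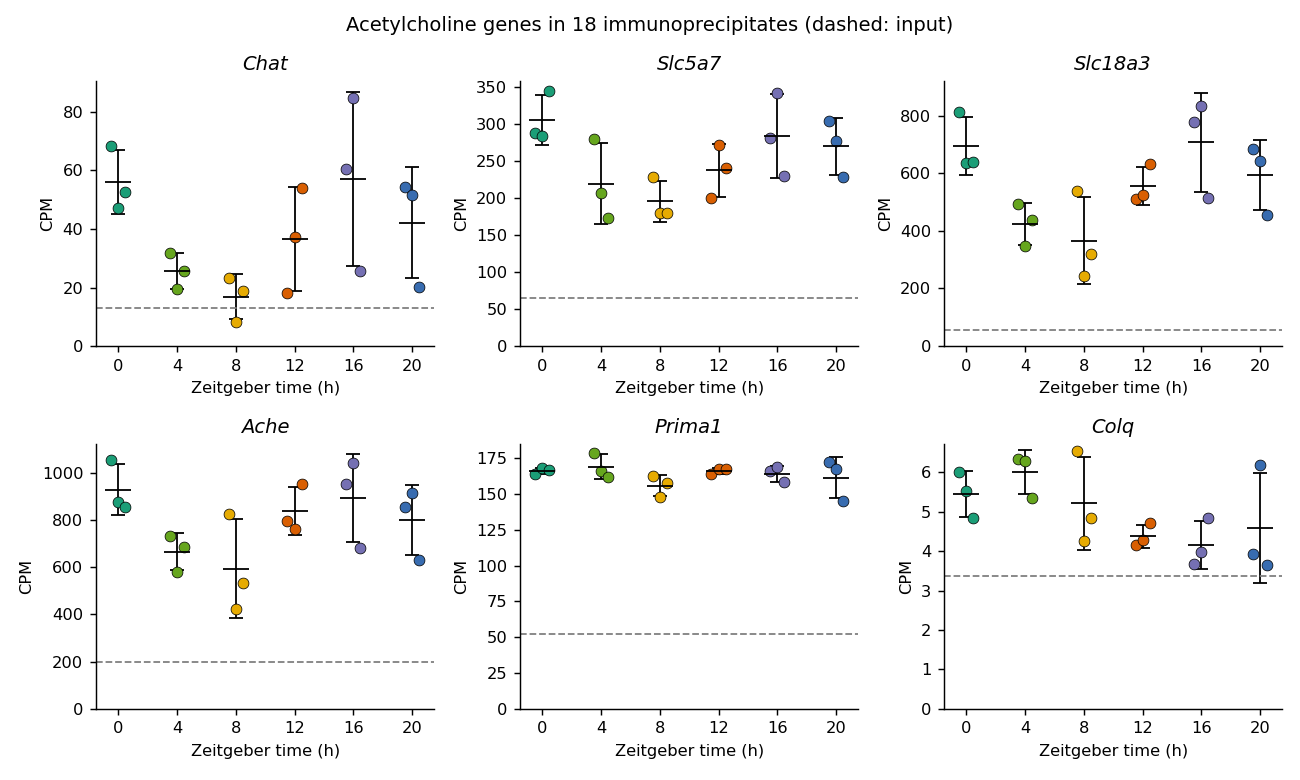
CPM (vertical axes, from 0) of the 6 genes by Zeitgeber time in h (horizontal axes); points are the 3 libraries of a time point, black bars the mean ± SD, and dashed lines the pooled input. For Chat the mean is 56.1 ± 11.0 CPM at ZT0, 16.8 ± 7.71 at ZT8 and 57.0 ± 29.7 at ZT16, while Prima1 stays between 145 and 179 CPM.

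To ask whether the levels followed a daily curve, 3 tests were run over all 15572 genes. JTK_Cycle, a rank test against cosine curves of 20, 24 and 28 h, called 0 of the 6 genes at a Benjamini-Hochberg adjusted p under 0.05, where it called 0.0385% of all genes. Before adjustment over genes, 4 of the 6 (Chat, Slc5a7, Slc18a3 and Colq) had p under 0.05, against 15.8% of all genes. Their best curves were of 20 h for Chat, Slc5a7 and Slc18a3 and of 28 h for Colq, none of 24 h. With 24 h as the only period, JTK_Cycle called 0 of the 6 and 1 of all genes after adjustment. A 24-h cosinor fitted with edgeR called 1 of the 6, against 6.24% of all genes. The gene called was Slc18a3, with a log2 amplitude of 0.43 (SE 0.11), a fitted peak at ZT 19.0 and an edgeR adjusted p of 0.0455. Chat had the larger fitted amplitude, 0.77 (SE 0.20), and missed the threshold (edgeR adjusted p = 0.0577). Slc5a7 had an amplitude of 0.28 (SE 0.07; edgeR adjusted p = 0.0555) and Ache of 0.25 (SE 0.09; edgeR adjusted p = 0.155). The fitted peaks of these 3 genes lay between ZT 18.8 and ZT 20. Prima1 had an amplitude of 0.015, and Colq one of 0.26 with a fitted peak at ZT 3.4 (edgeR adjusted p = 0.158). The median amplitude was 0.27 over the 6 genes and 0.18 over all genes tested. A test for any difference among the 6 time points called 1 of the 6, Slc18a3 (edgeR adjusted p = 0.0438), against 6.74% of all genes. Chat was at 0.0572 in that test.

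The cosinor call is a narrow one. Leaving out 1 library at a time, the cosinor called 0 genes in 12 of 18 cases. It called 1 without replicate 1 of ZT0 or ZT8 (Slc18a3) or of ZT4 (Slc5a7), 3 without replicate 3 of ZT12 or ZT16, and 4 without ZT20 replicate 3. The call of Slc18a3 was thus lost in 13 of 18 cases. The cosinor counts over all genes fell too, so that low counts were not particular to these genes. They ran from 2 (without ZT0 replicate 2 or ZT12 replicate 1) to 801 (without ZT20 replicate 2) in the 12 cases. In the others they ran from 672 to 2668, against 972 with all libraries. The test for any time point likewise called 0 in 12 cases, the others being replicate 1 of ZT4, ZT8 or ZT12 and replicate 3 of ZT12, ZT16 or ZT20, with 2 to 4 genes. Over all genes that test called 5 to 881 in the 12 cases and 990 to 2453 in the others, against 1049. DESeq2 called 3 by the cosinor (Chat, Slc5a7 and Slc18a3) and 4 for any time point (these and Ache), and over all genes it called 2312 and 2502, against 972 and 1049 in edgeR.

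Between ZT0 and ZT8, within the light phase, 4 of the 6 genes fell, where 9.02% of all genes were lower at ZT8. Chat fell by 1.74 on the log2 scale (SE 0.43; edgeR adjusted p = 0.0115), from a mean of 56.1 to 16.8 CPM. Slc18a3 fell by 0.92 (SE 0.23; edgeR adjusted p = 0.0113), from 695 to 366 CPM. Ache fell by 0.65 (SE 0.20; edgeR adjusted p = 0.0292) and Slc5a7 by 0.64 (SE 0.17; edgeR adjusted p = 0.0158). For these 4 genes and for Prima1, no library of ZT8 reached the lowest of ZT0. The share of all genes separated in this way is not given here. At an unadjusted p under 0.05, edgeR gave 31.6% of all genes for this pair. The anchors did not pass, with a difference of -0.09 for Prima1 (95% interval, -0.27 to 0.09) and -0.07 for Colq (-0.58 to 0.44). Both lower bounds were nearer to 0 than the differences fitted for the other 4 genes.

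Between ZT8 and ZT16, from light to dark, the same 4 symbols rose, where 9.11% of all genes were higher at ZT16. The comparison shares its ZT8 libraries with the one before, so that it is not separate evidence. Chat rose by 1.77 (SE 0.43; edgeR adjusted p = 0.0115), Slc18a3 by 0.95 (SE 0.23; edgeR adjusted p = 0.0107), Ache by 0.59 (SE 0.20; edgeR adjusted p = 0.0452) and Slc5a7 by 0.54 (SE 0.17; edgeR adjusted p = 0.0367). The libraries of the times did not overlap for Chat and Slc5a7, and did for Slc18a3 and Ache. How many of all genes lacked overlap is not given here, while 31% had an unadjusted p under 0.05 in edgeR. Prima1 differed by 0.08 (-0.10 to 0.25) and Colq by -0.32 (-0.84 to 0.20), neither past the threshold.

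Between ZT8 and ZT20, 0 of the 6 genes passed in edgeR, as did 0% of all genes. DESeq2 called 0 of the 6 and 1114 of all genes. At an unadjusted p under 0.05 edgeR gave 4 of the 6, against 22.3% of all genes. Chat differed by 1.32 (SE 0.44; edgeR adjusted p = 0.0961), Slc18a3 by 0.70 (SE 0.23; edgeR adjusted p = 0.0941), Slc5a7 by 0.46 (SE 0.17; edgeR adjusted p = 0.124) and Ache by 0.43 (SE 0.20; edgeR adjusted p = 0.202).

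**Figure D3:**
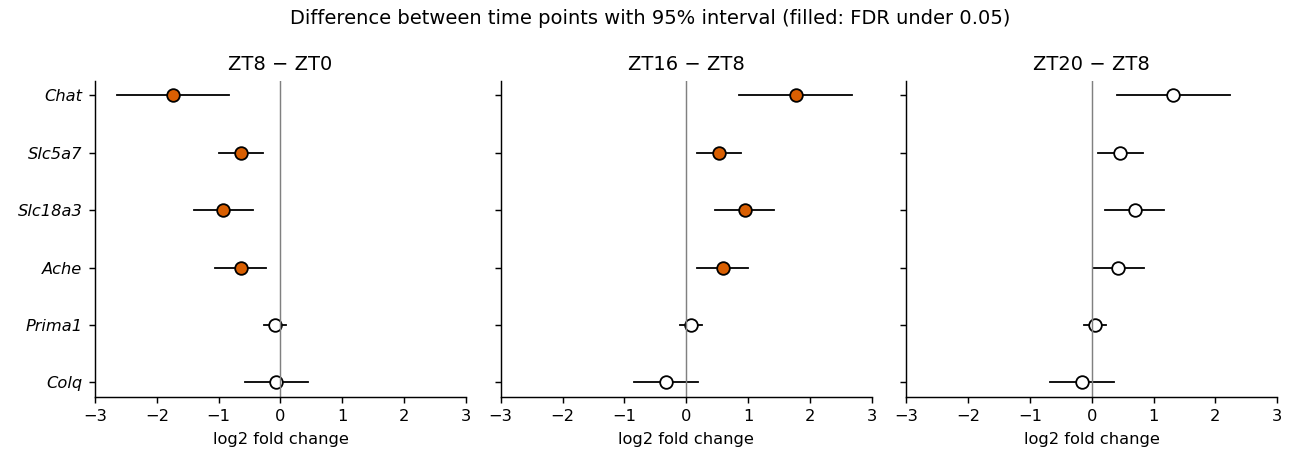
Log2 fold change (horizontal axes) of the 6 genes between time points in the edgeR fit, with 95% intervals; filled points passed an adjusted p of 0.05. Chat, Slc5a7, Slc18a3 and Ache are filled for ZT8 against ZT0 and for ZT16 against ZT8, and no gene is filled for ZT20 against ZT8.

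These calls rest on few libraries. Without ZT8 replicate 2, which was the lowest library of Chat, Slc18a3 and Ache, 0 of the 6 genes passed for ZT8 against ZT0 and 0 for ZT16 against ZT8. Without ZT0 replicate 1 there were 0 for ZT8 against ZT0, and without ZT16 replicate 2 there were 0 for ZT16 against ZT8. Without ZT8 replicate 1, the highest ZT8 library of these genes, 4 passed for ZT20 against ZT8. The counts over all genes moved in the same way. Without ZT8 replicate 2 they were 274 and 87, against 2798 and 2633 with all libraries. Without ZT0 replicate 1 there were 639, without ZT16 replicate 2 there were 72, and without ZT8 replicate 1 there were 2318 for ZT20 against ZT8, against 0.

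Markers of other cells were compared at the times that carry the calls. The summed oligodendrocyte markers were at 1818 to 2201 CPM at ZT0, 1729 to 1991 at ZT8 and 1929 to 2874 at ZT16, against 21566 CPM in the input. Microglial markers stood at 33.1 to 35.0 CPM at ZT0, 36.0 to 47.4 at ZT8 and 31.2 to 35.6 at ZT16, against 240 CPM in the input. Inhibitory neuron markers stood at 321 to 337 CPM at ZT0, 246 to 299 at ZT8 and 290 to 332 at ZT16. Astrocyte markers stood at 165 to 185 CPM at ZT0 and 131 to 165 at ZT8, and fibroblast markers at 19.01 to 19.6 CPM and 11.5 to 18.97 CPM. Motor neuron markers overlapped between ZT0 (11993 to 12670 CPM) and ZT8 (12059 to 13153 CPM). Thus the ZT8 libraries were higher than those of ZT0 and ZT16 for microglial markers and lower than those of ZT0 for markers of inhibitory neurons, astrocytes and fibroblasts, and the part of these cells in the changes was not tested. With the oligodendrocyte score in the model, 3 of the 6 genes (Chat, Slc5a7 and Slc18a3) passed for ZT8 against ZT0 and 0 for ZT16 against ZT8, where 1905 and 339 of all genes passed (2798 and 2633 without it). The differences moved little, for ZT16 against ZT8 to 1.74 for Chat, 0.93 for Slc18a3, 0.59 for Slc5a7 and 0.58 for Ache.

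Across the 18 libraries, Chat, Slc5a7, Slc18a3 and Ache varied together, Prima1 followed them less closely, and Colq showed no such relation. The closest pair was Slc18a3 and Ache, with Pearson r = 0.976 and Spearman rho = 0.942 of log2 CPM over 18 libraries (permutation p = 1e-05 for both, the smallest that 100000 permutations give, adjusted p = 5e-05 over the 15 pairs). Without the 2 libraries farthest from the median of Slc18a3, r was 0.950, and on deviations from the time point means it was 0.986. Chat and Slc18a3, the pair of 1 locus, had r = 0.934 and rho = 0.922 (permutation p = 1e-05, adjusted p = 5e-05), 0.882 without 2 libraries and 0.861 within time points. Chat and Slc5a7 had r = 0.846 and rho = 0.862 (adjusted permutation p = 0.00015 for r), and 0.687 within time points. In all, 10 of the 15 pairs passed an adjusted permutation p of 0.05 for r, and the 5 that did not were those with Colq. Much of the table moved in the same way. The share of all genes with r over 0.8 was 7.43% for Chat, 4.67% for Slc5a7, 8.75% for Slc18a3, 7.70% for Ache, 0.0128% for Prima1 and 0% for Colq. By rank of likeness over all genes tested, Ache was number 31 for Slc18a3 and Slc18a3 was number 5 for Ache, while Slc18a3 was number 109 for Chat.

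By the same measure, the genes most like Chat over 18 libraries were Cadm3 (r = 0.978), Nedd4 (0.975) and Men1 (0.968). Those most like Slc18a3 were Clstn1 (0.990), Cpne6 (0.988) and Inpp5j (0.987), and those most like Ache were Wbp2 (0.988), Pacsin1 (0.984) and Eef2 (0.982). Capn2 (0.956) and Acsl6 (0.955) were among the 3 most like Slc5a7. For Prima1 the highest were lower, with Lrrc55 at 0.829, followed by Rasgef1b and by Trim28 at 0.797, and for Colq they were Igf2r at 0.769, Ccdc91 at 0.689 and Zfp518b at 0.676. These are descriptions over libraries that differ in depth and time point, and both genes of a pair are read from the same libraries.

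The axis along which the libraries differed was measured without the acetylcholine genes. A principal component analysis of log2 CPM in 9209 other genes put 52.7% of the variance on its first component and 8.53% on the next. ZT8 replicates 2 and 3 stood at one end of it (scores 42.5 and 29.7) and ZT16 replicate 2 at the other (-27.9). ZT8 replicate 1 stood apart from the other ZT8 libraries, at 5.02. Slc18a3 followed this component with r = -0.982 and rho = -0.965 (permutation p = 1e-05, adjusted p = 1.5e-05 over the 6 genes), -0.964 without the 2 libraries farthest from its median and -0.953 within time points. Chat had r = -0.955 and rho = -0.969 (permutation p = 1e-05, adjusted p = 1.5e-05), and -0.916 within time points. For Ache r was -0.945, for Slc5a7 -0.882, for Prima1 -0.549 and for Colq 0.118. For Prima1 it was -0.731 within time points and -0.286 without the 2 libraries farthest from the median of the component. Within the set of other genes, 27.4% had an absolute r over 0.8 with the component, which they themselves define. With the component as a term in the model, 0 of the 6 genes passed for ZT8 against ZT0, for ZT16 against ZT8, in the cosinor or for any time point. Of all 15572 genes, 2, 2, 11 and 18 passed there, so that the count of 0 is not particular to these genes. The difference for Chat between ZT8 and ZT0 was then 0.30. What the component stands for was not tested, and time of day and this axis overlap in these libraries.

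**Figure D4:**
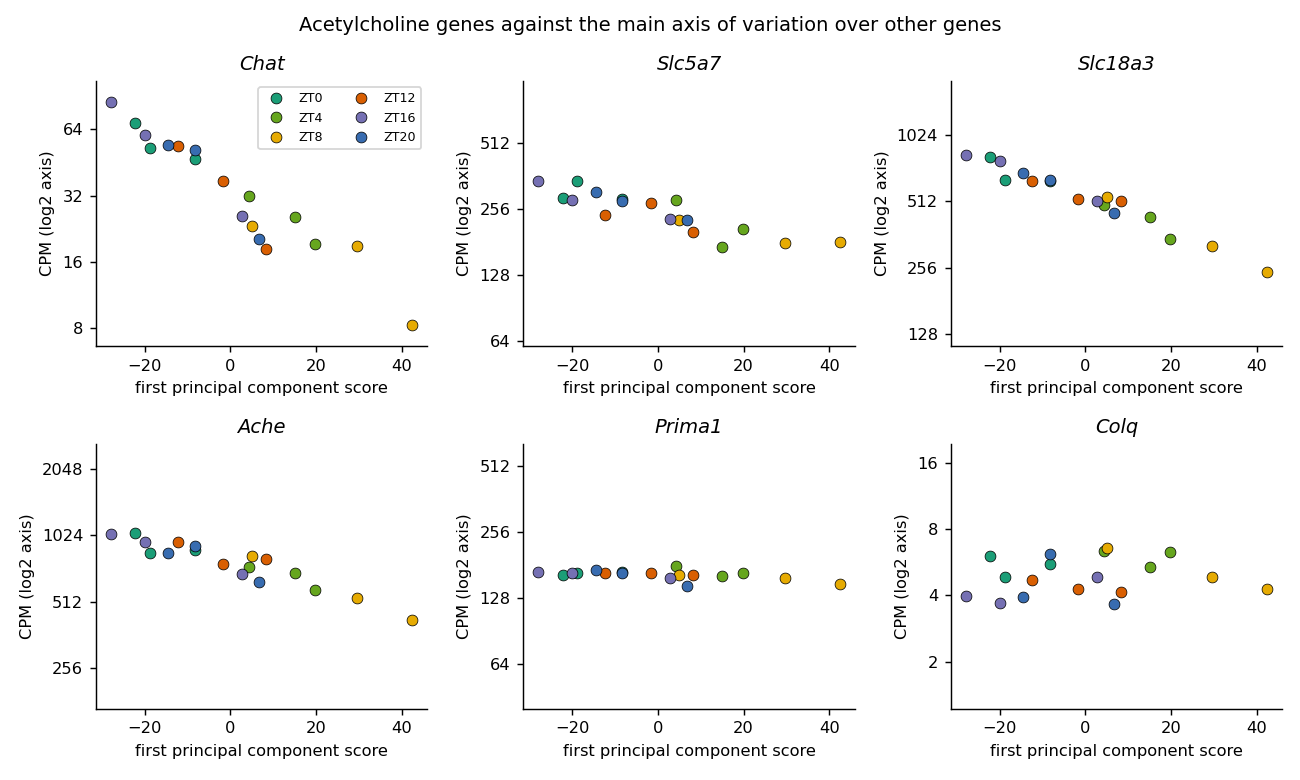
CPM of the 6 genes (vertical axes, log2 scale, each spanning 16-fold) against the score of each library on the first principal component of 9209 other genes (horizontal axes), coloured by time point. Chat, Slc18a3 and Ache are lower at higher scores, Slc5a7 less tightly (r = -0.882), and Prima1 (r = -0.549) and Colq (r = 0.118) are nearly flat on these axes.

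Acetyl-CoA, the second substrate of Chat, is made in mitochondria and by enzymes of the cytosol. Of 8 genes of its supply, 3 fell between ZT0 and ZT8 and 3 rose between ZT8 and ZT16, where 9.02% and 9.11% of all genes did so. The median log2 difference over the 8 genes was -0.06 and 0.04, against -0.003 and 0.005 over all genes tested. Acly, ATP citrate lyase, which splits exported citrate into acetyl-CoA, fell by 0.97 (SE 0.20; edgeR adjusted p = 0.0064), from 1357 ± 135 to 692 ± 208 CPM (SD, n = 3), and rose by 1.00 (edgeR adjusted p = 0.00699) to 1381 ± 369 CPM. Acss2, which makes acetyl-CoA from acetate, fell by 0.79 (edgeR adjusted p = 0.0258), from 58.5 ± 7.68 to 33.9 ± 10.2 CPM, and rose by 0.84 (edgeR adjusted p = 0.0207). Cs, citrate synthase, fell by 0.34 (edgeR adjusted p = 0.0166), from 294 ± 17.1 to 233 ± 11.3 CPM, and rose by 0.38 (edgeR adjusted p = 0.0105). No gene of this list passed for ZT20 against ZT8 in edgeR (3 at an unadjusted p under 0.05), and DESeq2 called Acly and Cs there. Acly and Cs also passed the cosinor (edgeR adjusted p = 0.0410 and 0.0409) and the test for any time point. The citrate carrier Slc25a1, at 476 ± 34.7 CPM at ZT0 and 483 ± 6.12 CPM at ZT8, and the pyruvate dehydrogenase genes Pdha1, Pdhb, Dlat and Dld did not pass in these pairs. Of these, Pdhb differed in the other direction, by 0.22 and then -0.22 (edgeR adjusted p = 0.134 and 0.132, unadjusted p = 0.0389 and 0.0375). Slc25a1, Pdhb and Acly were enriched over the input, with log2 ratios of 2.49, 1.96 and 1.79.

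Choline reaches the neuron by transport and by turnover of membrane lipids. Of 14 such genes, 12 passed the filter and 0 changed in edgeR in the cosinor, for any time point or between ZT8 and ZT0, ZT16 or ZT20, and DESeq2 called 0 in the same comparisons. At an unadjusted p under 0.05 edgeR gave 1 of the 12 in the cosinor, 1 for any time point, 1 for ZT8 against ZT0 (Slc44a2), 2 for ZT16 against ZT8 (Slc44a1 and Slc44a2) and 0 for ZT20 against ZT8. The median log2 difference was -0.17 for ZT8 against ZT0 and 0.18 for ZT16 against ZT8. The genes left out were Slc44a3, with 15 counts over all 18 immunoprecipitates, and Slc44a4, with 0. Pemt, which makes phosphatidylcholine by methylation, was enriched (log2 ratio 1.37), as were Gpcpd1 and Pnpla6, which act on the breakdown of choline lipids, at 1.04 for both. Slc44a1, a choline transporter of many cells, was depleted at -2.31, as were the phospholipases Pld1 and Pld2 (-2.24 and -1.98).

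Of 5 partners of the esterase at the synapse, 4 were depleted in the immunoprecipitates. The share of all genes depleted is not given here, so whether this count is particular to these partners was not tested. The depleted genes are listed next with their log2 ratios. They were Bche, the related butyrylcholinesterase (-3.44), the receptor kinase Musk (-4.82), its co-receptor Lrp4 (-4.19) and the basal lamina proteoglycan perlecan, Hspg2 (-2.39). Agrn, agrin, which motor neurons release at the junction, was close to the input at -0.13. Musk was counted 5 times over all immunoprecipitates and was not tested over time, and 0 of the other 4 passed in edgeR or DESeq2 in any of these comparisons, with 0 at an unadjusted p under 0.05 in edgeR.

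**Figure D5:**
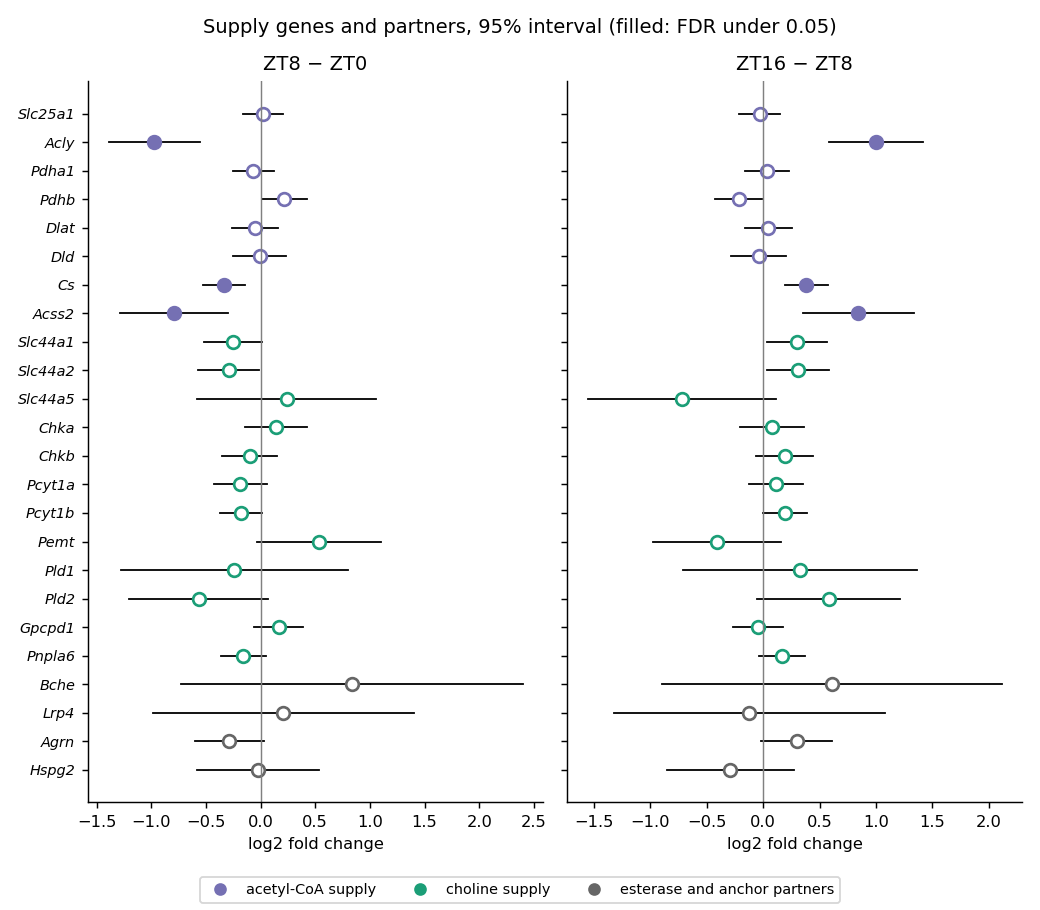
Log2 fold change (horizontal axes) with 95% intervals of 24 genes for acetyl-CoA supply, choline supply and partners of the esterase, for ZT8 against ZT0 and ZT16 against ZT8; filled points passed an edgeR adjusted p of 0.05. The filled genes are Acly, Cs and Acss2, at -0.97, -0.34 and -0.79 in the ZT8 against ZT0 panel.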

How the data were processed

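Ribosome-bound mRNA of 18 immunoprecipitates and 1 pooled input was sequenced. As the labels and the study's methods state, the authors prepared stranded mRNA libraries, aligned paired-end reads with STAR 2.7.5 to mm10 and quantified genes with RSEM, and the deposited values are expected counts per gene, not normalized. Between 1.9% and 3.7% of a library's values were not whole. Expected counts were rounded here.

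Genes were kept with filterByExpr, scaled by TMM in edgeR 4.0.16 (R 4.3.3), and tested with its quasi-likelihood F-test over the 18 immunoprecipitates (Benjamini-Hochberg over 15572 genes, threshold 0.05). Levels are CPM, and log2 CPM carried a prior count of 2. The 95% intervals and standard errors come from the F statistic. JTK_Cycle used 18 templates, with equal cosine values merged, Bonferroni adjustment over templates and then adjustment over genes. Alternatives were DESeq2 1.42.0, other scalings and filters, a replicate block, an oligodendrocyte score, and leaving out each library. The first principal component as a term was added after seeing the data. Scripts were tested on simulated data. Total counts and the number of libraries set the precision, and reads carried no molecular identifiers. Replicates were separate spinal cords.

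The genes named are the 6 members, the 3 genes most correlated with each, and the lists of supply, partner and marker genes. Of these, 1 gene is not reported here. Members and lists were chosen with earlier results of these data known. Transcript lengths are those of GENCODE M21, and upstream windows and E-box counts those of RefSeq. Figures were drawn with matplotlib 3.10.9.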

Additional observations from a re-analysis of the deposited data

How the results depend on the processing

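The calls depended on single libraries and on the axis shared by much of the table. Leaving out each library in turn, the number of the 6 genes called ranged from 0 to 4 in the cosinor, for any time point, for ZT8 against ZT0, for ZT16 against ZT8 and for ZT20 against ZT8, and from 6 to 10 of the 15 correlations (6 without ZT8 replicate 2). For ZT8 against ZT0 it was 0 without ZT0 replicate 1 or ZT8 replicate 2, 1 without ZT8 replicate 3 and 2 without ZT0 replicate 3. For ZT16 against ZT8 it was 0 without ZT8 replicate 2 or ZT16 replicate 2, 1 without ZT8 replicate 3 and 2 without ZT16 replicate 1. Over all genes the counts ranged from 2 to 2668 in the cosinor and from 5 to 2453 for any time point. They ranged from 274 to 4010 for ZT8 against ZT0, 72 to 3885 for ZT16 against ZT8 and 0 to 2318 for ZT20 against ZT8. In these fits Chat, Slc5a7, Slc18a3, Ache and Prima1 kept the direction of their differences, and Colq ranged from -0.28 to 0.050 for ZT8 against ZT0 and from -0.47 to 0.043 for ZT20 against ZT8.

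The count for ZT8 against ZT0 stayed at 4 under the other scalings, both looser filters and DESeq2. Over all genes it was then 2589 to 3372, against 2798 as reported. With at least 10 counts in total, any time point called 2 of the 6 genes and 1371 of all genes (1049 as reported). With at least 1 count, 4 were called by the cosinor, 4 for any time point and 4 for ZT20 against ZT8, but the prior degrees of freedom were then infinite (8.07 as reported), so that all genes shared 1 trend of the spread and these counts are not comparable. Over all genes that filter gave 2349, 2767 and 1641. DESeq2 called 3 by the cosinor and 4 for any time point, with 2312 and 2502 over all genes. JTK_Cycle adjusted within the gene alone called 4 of the 6 and 2468 of all genes. Fitted to the 6 libraries of the pair alone, ZT16 against ZT8 called 0, with fewer samples to estimate the spread. Of all genes 1 passed there, so that the count of 0 is not particular to these genes. The fit of this kind for ZT8 against ZT0 called 3 of the 6 (Chat, Slc5a7 and Slc18a3) and 1912 of all genes. With the oligodendrocyte score there were 0 in the cosinor, 0 for any time point and 0 for ZT16 against ZT8, and Colq was at 0.022 for ZT8 against ZT0. Over all genes 2, 0 and 339 were then called, while Chat kept an amplitude of 0.67 (0.77 as reported) and a difference of 1.74 for ZT16 against ZT8 (1.77).

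With the first principal component as a term, chosen after seeing the data, 0 genes were called in the cosinor, 0 for any time point, 0 for ZT8 against ZT0 and 0 for ZT16 against ZT8. The differences turned for ZT8 against ZT0 to 0.30 (Chat), 0.10 (Slc18a3), 0.21 (Ache), 0.082 (Prima1) and 0.21 (Colq), and for ZT16 against ZT8 to -0.35 (Chat), -0.078 (Slc5a7), -0.064 (Slc18a3), -0.25 (Ache) and -0.092 (Prima1). For ZT20 against ZT8 they were -0.24 (Chat), -0.00020 (Slc5a7), -0.056 (Slc18a3), -0.19 (Ache) and -0.080 (Prima1). The cause was not tested.

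Deviations from the time point means were correlated between libraries of different times. For libraries of the same replicate number the correlation lay between -0.15 and 0.18, with 4 of 45 above 0.1. For libraries of other numbers it lay between -0.21 and 0.18, with 9 of 90 above 0.1. Such values cannot tell whether a number stands for a shared batch. With the replicate block, ZT8 against ZT0 called 4 of the 6 genes, ZT16 against ZT8 4, ZT20 against ZT8 0, the cosinor 1, any time point 1 and JTK_Cycle 0, the same counts as without it. In the same order, the counts over all genes with the block were 2756, 2582, 7, 774, 1004 and 356. Without the block they were 2798, 2633, 0, 972, 1049 and 6. Depth limits Colq most, at 25 to 143 counts a library.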
